A study of Rattus norvegicus with 6 samples.

Results

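The Hedgehog genes described here are the ligands Shh and Dhh, the receptor Ptch1, the signal transducer Smo, the inhibitor Hhip and the transcription factors Gli1, Gli2 and Gli3, together with Olig1, a basic helix-loop-helix transcription factor. They are 9 of the 29468 gene symbols in the tables and were chosen by name. RNA of Schwann cell precursors (SCPs) was compared with RNA of repair Schwann cells (RSCs) in Lewis rats, with 3 samples per group. The sample labels give the genotype as wild type, whereas the paper states that its graft cells came from rats carrying a red fluorescent transgene. SCPs came from untreated embryos at embryonic day 14, from both sciatic nerves and the brachial plexus, and RSCs from the distal stump of sciatic nerves of 10-week-old rats that had been cut 1 week before. Both were freed from the tissue with enzymes and used for RNA without culture. Before that, a brief plating step served to lower the share of fibroblasts and macrophages. How many animals or embryos went into a sample is not given, so the p-values below measure the spread between these samples only.

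Hedgehog ligands are secreted proteins that bind PTCH1 on the receiving cell, which releases SMO from inhibition, and SMO then acts in the primary cilium to turn GLI proteins into activators. GLI1 is an activator and a common target of the pathway, GLI2 is the main activator at the start of a response, and GLI3 acts largely as a repressor when no ligand is present. In peripheral nerve, DHH is the ligand of Schwann cells and is known for its part in forming the perineurium, whereas SHH and OLIG1 are known as genes that Schwann cells turn on after a nerve is cut.

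Expression was measured as FPKM, a fragment count scaled to transcript length and library size, so that levels can be set beside each other between genes. Each table also holds transcripts that carry no gene name and were assembled from that sample alone. For 7 of the 9 genes some of the signal lay in such unnamed transcripts, so each level is given from the reference transcripts and, where it differs, with the unnamed transcripts of the same Cufflinks locus added. The sum counts a partial transcript as a whole one, and a second sum that weights each transcript by its length was made after this was seen. Differences are RSC minus SCP on the log2(FPKM + 1) scale from limma, a linear model with a shared estimate of variance, over the 13003 genes that averaged 1 FPKM or more, and a gene was called at an unadjusted two-sided p under 0.01. The study required a log2 fold change over 2 as well as this p, and the larger calls are given apart as over 4-fold. The p-values printed are Benjamini-Hochberg adjusted over all tested genes, so a called gene can have an adjusted p above 0.01. The median of all 13003 differences was -0.17, so small negative values are common in this comparison. The tables hold no read counts. Absolute depth is therefore unknown, and relative depth was 0.88 to 1.00 of the deepest sample in SCPs and 0.79 to 0.84 in RSCs.

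Both ligands were higher in RSCs, and Smo and the 3 Gli genes had higher mean levels in SCPs. From reference transcripts, 7 of the 9 genes passed the filter and 3 of these were called, Shh and Dhh higher in RSCs and Smo higher in SCPs. Of all tested genes 40.5% were called, 18.1% with RSCs higher and 22.4% with SCPs higher, so 3 of 7 was near the background share. The 3 values of each group lay apart without overlap in 58.6% of all tested genes, and in 72.4% with unnamed transcripts added, so separation of the groups is common here. Shh, Dhh and Smo were all called with a difference of over 4-fold, as were 7.81% of tested genes with RSCs higher and 3.78% with SCPs higher. With unnamed transcripts added, 6 of 7 were called, Gli1, Gli2 and Gli3 joining Smo on the SCP side, against 57.4% of the 14019 genes tested in that form (23.2% with RSCs higher and 34.2% with SCPs higher). The length-weighted sum called 6 of 7 as well, against 63.2%. Hhip and Olig1 were under the filter in all of these fits and are described mainly by their values, with an unfiltered fit given beside.

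**Figure D1:**
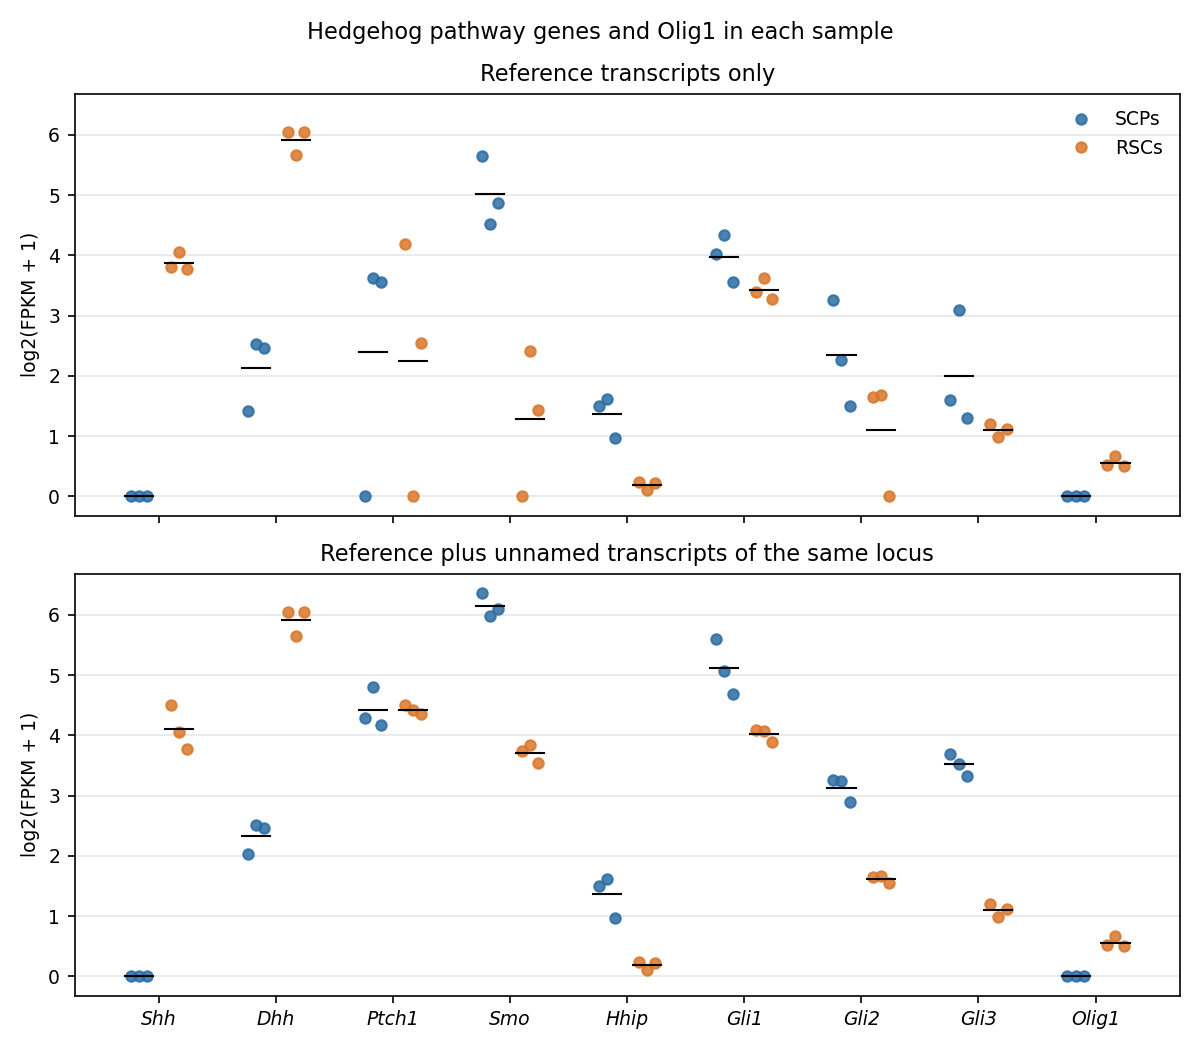
Level of each gene in each sample as log2(FPKM + 1), SCPs in blue and RSCs in orange, with a bar at the mean of the 3 samples. The upper panel holds reference transcripts only and the lower panel adds unnamed transcripts of the same locus, where Ptch1 lies at the same height in both groups and Smo and the 3 Gli genes lie higher in SCPs.

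Dhh, on rn6 at chr7:140575288-140580783, was the most abundant of the 9 genes in RSCs. Its level was 1.66, 4.74 and 4.51 FPKM in SCP replicates 1, 2 and 3 and 65.0, 49.5 and 65.2 FPKM in RSC replicates 1, 2 and 3. The lowest RSC value stood far above the highest SCP value. The mean was 59.9 ± 9.02 FPKM in RSCs and 3.64 ± 1.72 FPKM in SCPs (SD, n = 3), a 16.5-fold higher level in RSCs. The difference was 3.79 on the log2 scale (95% interval 2.97 to 4.60, limma adjusted p = 0.00037). In SCP replicate 1 an unnamed transcript brought Dhh to 3.09 FPKM, and the ratio of the group means with unnamed transcripts was 14.6. An unnamed transcript of 304 bases inside the Dhh span in SCP replicate 3, at 15.8 FPKM with a Cufflinks interval of 5.16 to 25.8, belonged to another Cufflinks locus and was not added.

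Shh, at chr4:718538-727691, was listed at 0 FPKM in all 3 SCP samples and had 13.0, 15.6 and 12.7 FPKM in RSC replicates 1, 2 and 3. The groups did not overlap, and the spread within RSCs was small. The mean in RSCs was 13.8 ± 1.57 FPKM (SD, n = 3). The limma difference was 3.88 (adjusted p = 4.9e-05), a size set by the 1 added before the logarithm, and no fold is given against a group listed at 0. An unnamed transcript raised RSC replicate 1 to 21.7 FPKM and left the other samples as they were. In RSC replicate 2 an unnamed transcript of 616 bases inside the Shh span, at 5.51 FPKM, was not added.

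Within RSCs there was more Dhh than Shh in every sample, by 4.99, 3.18 and 5.14 times in replicates 1, 2 and 3 from reference transcripts, with 2.99 in replicate 1 once unnamed transcripts were added. The third ligand gene, Ihh, had at most 0.584 FPKM in any sample. Set against Sox10, a transcription factor present throughout the Schwann cell lineage, Dhh stood at 0.923, 2.71 and 2.49 per 100 FPKM of Sox10 in SCPs (1.72 in replicate 1 with unnamed transcripts) and at 43.7, 34.5 and 45.5 in RSCs. Shh stood at 8.76, 10.9 and 8.87 per 100 FPKM of Sox10 in RSCs, and at 14.6 in replicate 1 with unnamed transcripts. Sox10 itself had 179, 175 and 181 FPKM in SCPs and 149, 143 and 143 FPKM in RSCs, a difference of -0.30 (adjusted p = 0.0077) beside the median of -0.17 for all genes.

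The sequence upstream of Dhh is shown because it holds several GC boxes, the letters GGGCGG to which SP factors are known to bind. The stretch is the 250 bases before the start of the gene in RefSeq on build GRCr8, chr7:131935353-131935602, minus strand, and differs in build from the rn6 tables. Capitals mark the 4 GC boxes, of which the first is read on the opposite strand.
Dhh: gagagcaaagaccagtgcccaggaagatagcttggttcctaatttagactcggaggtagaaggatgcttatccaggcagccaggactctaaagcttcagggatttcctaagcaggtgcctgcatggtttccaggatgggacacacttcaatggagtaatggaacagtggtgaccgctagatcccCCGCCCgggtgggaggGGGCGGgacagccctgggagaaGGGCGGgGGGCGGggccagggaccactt
A GC box on either strand was present in 30.5% of the 33469 promoters of this length and in 3 of the 6 genes described here that the table holds, Dhh, Ptch1 and Gli2. The AP-1 motif TGANTCA, with N any base, was in 6.34% of promoters and in none of the 6. Such matches describe letters, not bound sites.

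The receptor Ptch1, at chr17:1032242-1085885, could not be read from its reference transcript. Reference FPKM were 0, 11.4 and 10.8 in SCPs and 17.2, 0 and 4.85 in RSCs, and Cufflinks gave this transcript the status LOWDATA in 6 of 6 samples. A 0 stood in 1 sample of each group, and the groups overlapped (difference -0.15, 95% interval -3.63 to 3.33, adjusted p = 0.94). With unnamed transcripts Ptch1 was at 18.5, 27.0 and 17.1 FPKM in SCPs and at 21.8, 20.5 and 19.4 FPKM in RSCs. The samples of both groups then lay in 1 narrow range, with means of 20.9 ± 5.37 and 20.6 ± 1.20 FPKM (SD, n = 3). The difference was 0.0072 with a 95% interval of -0.42 to 0.43 (adjusted p = 0.97), and 0.13 with an interval of -0.27 to 0.54 in the length-weighted sum. A difference within these bounds could not be detected with this spread.

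PTCH1 is itself a target of GLI factors in most tissues, and its promoter is shown because it was the 1 sequence among the 6 in the table to hold the GLI motif GACCACCCA. The 250 bases before its start in RefSeq lie at chr17:1555321-1555570 on the plus strand of GRCr8, with the match, read on the minus strand, in capitals.
Ptch1: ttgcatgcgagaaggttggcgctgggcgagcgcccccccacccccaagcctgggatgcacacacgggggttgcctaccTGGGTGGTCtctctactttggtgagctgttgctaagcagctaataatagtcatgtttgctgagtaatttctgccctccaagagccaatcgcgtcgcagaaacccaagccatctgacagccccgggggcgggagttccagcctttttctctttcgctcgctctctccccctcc
The match lay 172 to 164 bases before the start. The same letters on either strand were in 113 of the 33469 promoters, or 0.338%. The promoters of Dhh, Smo, Hhip, Gli2 and Gli3 had no match in this window.

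Smo, which carries the signal from PTCH1 into the cell, was higher in SCPs. Reference transcripts of Smo, at chr4:57019941-57041779, had 49.2, 22.0 and 28.3 FPKM in SCPs and 0, 4.35 and 1.70 FPKM in RSCs, and Cufflinks marked them LOWDATA in 5 of 6 samples. The groups did not overlap (difference -3.73, 95% interval -5.33 to -2.13, adjusted p = 0.0051). With a pseudocount of 0.1, under which the 0 in RSC replicate 1 weighs more, the difference was -5.08 and no longer called. With unnamed transcripts Smo was at 81.6, 62.0 and 67.5 FPKM in SCPs and at 12.3, 13.3 and 10.7 FPKM in RSCs. The scatter within groups was smaller in this form, and the level in SCPs was 5.81-fold that in RSCs (difference -2.44, 95% interval -2.76 to -2.12, adjusted p = 1.6e-05).

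Hhip, at chr19:31525134-31614487, encodes a membrane protein that binds Hedgehog ligands and keeps them from PTCH1. It was low in both groups, at 1.83, 2.06 and 0.966 FPKM in SCPs and at 0.178, 0.0812 and 0.172 FPKM in RSCs. Every SCP value was above every RSC value, with a ratio of the group means of 11.3. The Cufflinks intervals reached 0 in 3 of 3 RSC samples and stayed above 0 in SCPs. In a fit of all 20494 symbols above 0 in at least 1 sample the difference was -1.17 (adjusted p = 0.0082), or -2.78 with a pseudocount of 0.1. An uncharacterised gene, LOC102549515, lies inside Hhip.

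The 3 GLI genes had higher means in SCPs, by amounts that depended on the unnamed transcripts. Reference transcripts of Gli1, at chr7:70620794-70633163, gave 15.3, 19.2 and 10.8 FPKM in SCPs and 9.45, 11.3 and 8.65 FPKM in RSCs, which overlapped (difference -0.55, 95% interval -1.12 to 0.020, adjusted p = 0.10). With unnamed transcripts the values were 47.7, 32.5 and 24.7 FPKM in SCPs and 16.1, 15.9 and 13.8 FPKM in RSCs. These did not overlap (difference -1.10, adjusted p = 0.0054). The highest value, in SCP replicate 1, counted separate unnamed transcripts of 16.7 and 15.7 FPKM that cover different parts of the gene. Weighted by length, SCPs had 34.4, 33.1 and 23.4 FPKM and RSCs 16.3, 15.9 and 14.2 FPKM, a difference of -0.91 (adjusted p = 0.0020). The neighbouring gene Arhgap9 overlaps one end of Gli1, so reads there may be shared.

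Gli2, at chr13:34829021-34997009, had 8.54, 3.81 and 1.84 FPKM in SCPs and 2.14, 2.19 and 0 FPKM in RSCs from reference transcripts, with overlapping groups (difference -1.23, adjusted p = 0.17). Cufflinks marked a reference transcript of Gli2 LOWDATA in 2 of 6 samples, SCP replicates 2 and 3. With unnamed transcripts Gli2 had 8.54, 8.49 and 6.44 FPKM in SCPs and 2.14, 2.19 and 1.92 FPKM in RSCs. All SCP samples were then above all RSC samples, by 3.75-fold in the means (difference -1.51, 95% interval -1.88 to -1.14, adjusted p = 0.00021).

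Gli3, at chr17:52294942-52569036, had 2.02, 7.50 and 1.48 FPKM in SCPs and 1.30, 0.984 and 1.17 FPKM in RSCs from reference transcripts. The groups did not overlap but the SCP samples were spread widely (difference -0.90, adjusted p = 0.19). Cufflinks gave the reference transcript the status LOWDATA in 2 of 6 samples, SCP replicates 1 and 3. With unnamed transcripts, present at this gene in SCPs alone, the SCP values were 12.0, 10.5 and 9.06 FPKM, 9.14-fold the RSC mean (difference -2.42, 95% interval -2.78 to -2.05, adjusted p = 3.0e-05). Gli3, whose product is the main repressor of the family, thus had the largest difference of the 3 GLI genes in this form, and also in the length-weighted sum at -2.76.

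**Figure D2:**
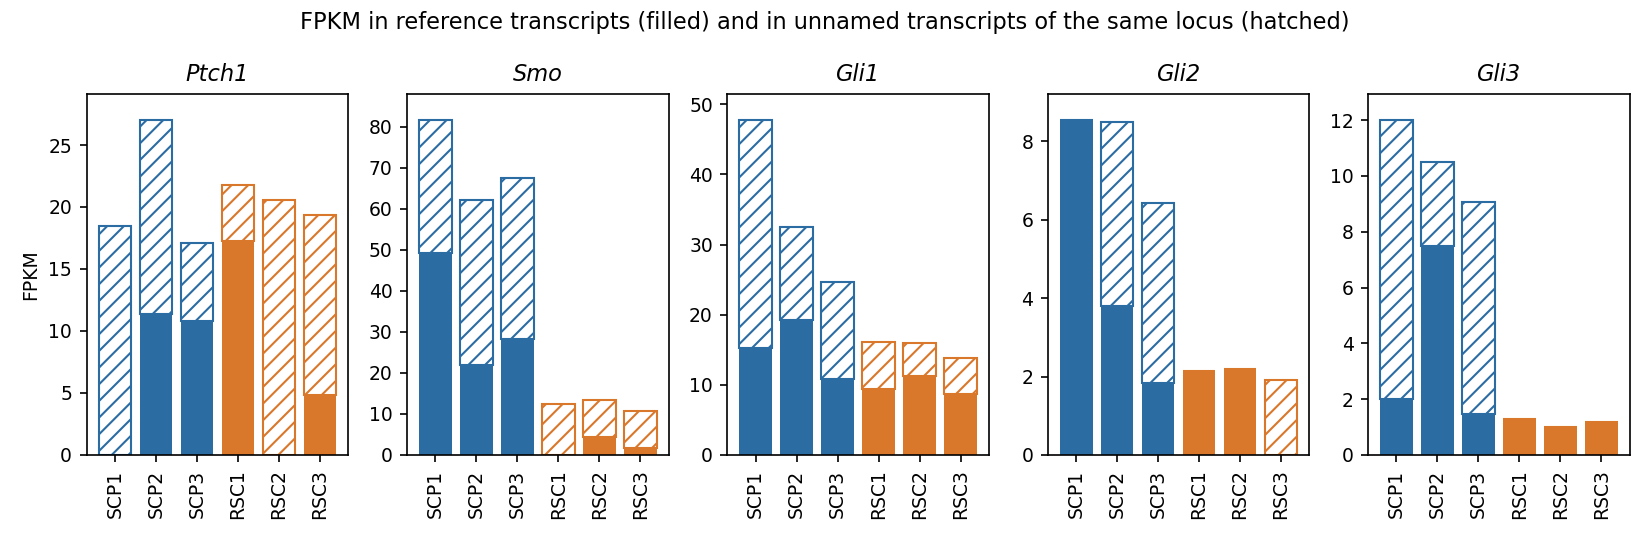
FPKM of Ptch1, Smo, Gli1, Gli2 and Gli3 in each sample, with the filled part from reference transcripts and the hatched part from unnamed transcripts of the same locus, each panel with its own axis from 0. The total of Ptch1 lies between 17.1 and 27.0 FPKM in all 6 samples while its filled part ranges from 0 to 17.2 FPKM.

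The order of the levels differed between the groups. With unnamed transcripts included, the SCP means ran from Smo (70.4 FPKM) to Gli1 (35.0), Ptch1 (20.9), Gli3 (10.5), Gli2 (7.82), Dhh (4.11) and Hhip (1.62), with Shh and Olig1 listed at 0. In RSCs they ran from Dhh (59.9 FPKM) to Ptch1 (20.6), Shh (16.7), Gli1 (15.3), Smo (12.1), Gli2 (2.08), Gli3 (1.15), Olig1 (0.477) and Hhip (0.144). Gli1 and Ptch1 overlapped in SCPs, and Shh overlapped with both Ptch1 and Gli1 in RSCs. All other neighbours in either order were separate in the 3 samples of the group, apart from Shh and Olig1, which were tied at 0 in SCPs. Weighted by length, the RSC mean of Smo (17.6 FPKM) stood above those of Shh and Gli1 (15.5 FPKM each), and the SCP order was as before.

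Olig1, at chr11:31428377-31430519, is a single-transcript gene known from the oligodendrocyte lineage. It was listed at 0 FPKM in the 3 SCP samples and had 0.429, 0.587 and 0.415 FPKM in RSC replicates 1, 2 and 3. The groups did not overlap, but the level was low throughout, the mean of 0.477 ± 0.096 FPKM (SD, n = 3) being lower than that of every other of the 9 genes in RSCs except Hhip. Cufflinks gave intervals of 0.098 to 0.782, 0.177 to 0.975 and 0.094 to 0.752 FPKM, none of which reached 0. In the fit of all 20494 symbols the difference was 0.56 (limma adjusted p = 0.0027), a size set by the 1 added before the logarithm and 2.52 with a pseudocount of 0.1. That p rests on SCP values of 0, which have no spread, and on low RSC values, so it adds little to the values themselves. No unnamed transcript lay at Olig1.

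Of 13 genes of the OLIG family and its partner factors 8 were tested and 3 were called, near the 40.5% of all tested genes. Their median difference was -0.17, as for all genes. Olig2 had at most 0.426 FPKM in any sample, and Olig3 was listed at 0 in all 6. Id2, which encodes an inhibitor that binds E proteins, was higher in RSCs (30.3 ± 4.43 FPKM in SCPs and 56.4 ± 6.66 in RSCs, difference 0.88, adjusted p = 0.0043), a call that was lost with unnamed transcripts (0.70, adjusted p = 0.046). Tcf3 and Tcf12 encode E proteins with which OLIG factors pair, and both were higher in SCPs. Tcf3 had 80.1 ± 11.9 FPKM in SCPs and 19.4 ± 2.04 in RSCs, a 4.13-fold difference, and Tcf12 was 1.64-fold higher in SCPs.

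Other genes of the pathway were taken from 8 lists of 100 gene symbols by role, of which 96 were in the tables and 79 were tested. Of these, 26 (32.9%) were called, 11 with RSCs higher and 15 with SCPs higher, a share below the 40.5% of all tested genes. Their median difference was -0.27, beside -0.17 for all genes and -0.55 for the 7 tested Hedgehog genes. With unnamed transcripts 38 of 85 (44.7%) were called, 14 with RSCs higher and 24 with SCPs higher, again below the background of 57.4%.

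**Figure D3:**
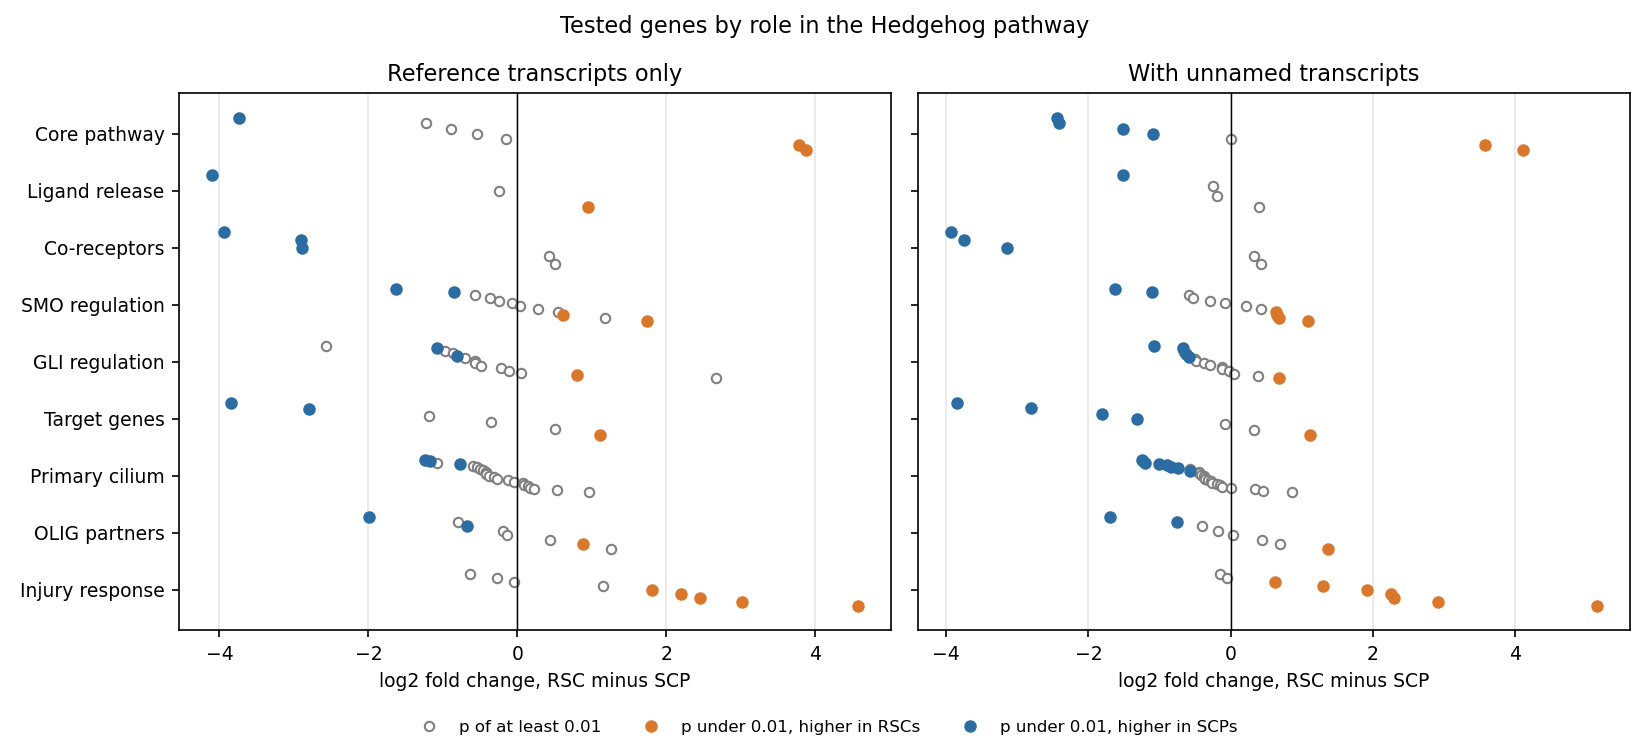
Difference between RSCs and SCPs on the log2(FPKM + 1) scale for each tested gene, with genes grouped by role in rows, open circles for genes not called and filled circles for genes called at p under 0.01, orange where RSCs were higher and blue where SCPs were higher. The co-receptor row holds 3 genes below -2 in both panels, and the cilium row holds no gene called higher in RSCs.

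Gas1, Cdon and Boc encode cell surface proteins that help PTCH1 to bind ligand, and all 3 were higher in SCPs, out of 5 tested genes of this list, with none higher in RSCs. Gas1 had 20.7, 19.6 and 18.3 FPKM in SCPs and 0.689, 0.125 and 0.266 FPKM in RSCs, 54.3-fold higher in SCPs (difference -3.94, adjusted p = 7.0e-05). Cdon had 10.3, 15.5 and 18.4 FPKM in SCPs and 0.957, 0.806 and 1.45 FPKM in RSCs, 13.8-fold higher in SCPs. Boc had 13.6, 8.86 and 13.6 FPKM in SCPs and 0.714, 0.649 and 0.847 FPKM in RSCs, 16.3-fold higher, or 30.3-fold with unnamed transcripts. None of these genes overlapped between groups. Gpc3, a surface proteoglycan that binds Hedgehog ligands, was abundant in both groups at 231 to 257 FPKM in SCPs and 290.0 to 395 FPKM in RSCs and was not called (adjusted p = 0.035). At an unadjusted p under 0.05 limma had 2 genes of the list higher in RSCs. At that level it had 23.2% of all tested genes higher in RSCs and 30.8% in SCPs. The shares of all tested genes called at p under 0.01 were 18.1% and 22.4%.

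Of 7 genes for making and releasing ligand, 3 were tested, with 1 called higher in RSCs and 1 in SCPs. Of all tested genes 18.1% and 22.4% were called in these directions. With unnamed transcripts the counts were 0 and 1 of 4, against 23.2% and 34.2% of all genes in that form. Scube1 and Scube3 encode secreted proteins of a family known to carry Hedgehog ligands away from the cell. Scube3 was higher in SCPs, at 26.9, 23.1 and 21.3 FPKM against 0, 1.95 and 0 FPKM in RSCs, and with unnamed transcripts the RSC values were 6.93, 9.16 and 6.93 FPKM and the level in SCPs 3.10-fold higher (adjusted p = 0.00018). Scube1 was 1.94-fold higher in RSCs (adjusted p = 0.021), a call that was lost with unnamed transcripts (difference 0.39, adjusted p = 0.070). Disp1, which releases the lipid-bound ligand, was not called, at 3.80 to 6.73 FPKM in SCPs and 3.50 to 5.02 FPKM in RSCs.

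Among 12 tested genes that move or regulate SMO, 2 were higher in RSCs and 2 in SCPs, against 18.1% and 22.4% of all tested genes. With unnamed transcripts the counts were 4 and 2, against 23.2% and 34.2% of all genes in that form. Arrb2, a beta-arrestin that binds active SMO, had 10.0 ± 1.38 FPKM in SCPs and 35.8 ± 5.04 FPKM in RSCs (3.56-fold, adjusted p = 0.00042), or 2.21-fold with unnamed transcripts. Gpr161 and Arl13b, which encode a ciliary receptor that restrains the pathway and a ciliary GTPase, were 5.42-fold and 1.95-fold higher in SCPs. Of 14 tested regulators of GLI proteins 1 was called higher in RSCs and 2 in SCPs, against the same 18.1% and 22.4% of all tested genes. At an unadjusted p under 0.05 limma had 1 higher in RSCs and 8 in SCPs, against 23.2% and 30.8% of all tested genes. With unnamed transcripts 1 of 16 was called higher in RSCs and 4 in SCPs, against 23.2% and 34.2% of all genes in that form. The length-weighted sum had 7 of 16 higher in SCPs, against 5266 of all 13787 genes tested in it. Sufu, which holds GLI proteins inactive, was 1.82-fold higher in SCPs from reference transcripts (adjusted p = 0.0053), but not called with unnamed transcripts (adjusted p = 0.027). Prkaca, the catalytic subunit of the kinase that marks GLI proteins for processing, was 2.18-fold higher in SCPs (adjusted p = 0.00055), and Spop, an adaptor for their degradation, was 1.77-fold higher in RSCs (adjusted p = 0.0020).

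Of 25 genes of the primary cilium and its transport in the tables, 23 were tested, none was higher in RSCs and 3 were higher in SCPs, with a median difference of -0.37. The count with SCPs higher lay below the share of all tested genes (22.4%). At an unadjusted p under 0.05 limma had 1 higher in RSCs and 4 in SCPs, both below the shares of all genes given above. Ift27, Ift140 and Ift74 encode parts of the particles that carry cargo in the cilium and were 2.47-fold, 2.44-fold and 1.78-fold higher in SCPs. With unnamed transcripts 8 of 25 were higher in SCPs and again none in RSCs, against 34.2% and 23.2% of all genes in that form.

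Of 6 tested genes usually listed as Hedgehog targets, 1 was called higher in RSCs and 2 in SCPs. Of all tested genes 18.1% were called with RSCs higher and 22.4% with SCPs higher. Ccnd1, a G1 cyclin, was higher in RSCs at 313 ± 19.9 FPKM against 144 ± 17.5 FPKM in SCPs (2.17-fold, adjusted p = 0.00051). Igf2, a growth factor of embryonic tissues, had 1084, 1180 and 1066 FPKM in SCPs and 68.6, 87.5 and 74.5 FPKM in RSCs (14.4-fold higher in SCPs, adjusted p = 1.4e-05), and Sfrp1, a secreted WNT antagonist, was 7.67-fold higher in SCPs (adjusted p = 4.0e-05). With unnamed transcripts Mycn and Ccnd2 were also called higher in SCPs. The counts of 7 tested were then 1 higher in RSCs and 4 in SCPs, against 23.2% and 34.2% of all genes in that form. These genes respond to many other signals, and Gli1 and Ptch1, the targets most used as readouts, have their values above.

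The list of injury-response genes commonly named with Shh and Olig1 had 5 of 9 called, all higher in RSCs, with a median difference of 1.81. Of all tested genes 18.1% were called higher in RSCs. With unnamed transcripts 7 of 9 were called, all higher in RSCs, against 23.2% of all genes in that form. The list was chosen with earlier results of these data known, so these counts describe it and are no test. Ngfr and Sox2 are also among the Schwann lineage markers below. Lif, a cytokine, was at 0, 0 and 0.445 FPKM in SCPs and at 24.7, 24.6 and 28.8 FPKM in RSCs (difference 4.58, adjusted p = 4.9e-05). Sox2, a transcription factor of immature glia, was 8.75-fold higher in RSCs, and Artn, a ligand of the GDNF family, 12.6-fold higher from a mean of 0.596 FPKM in SCPs, or 5.57-fold with unnamed transcripts. Ngfr, the p75 neurotrophin receptor, was 4.58-fold higher and Runx2 had a difference of 1.81 (adjusted p = 0.0058). Jun, the regulator of the repair state, was at 444, 423 and 483 FPKM in SCPs and at 118, 635 and 672 FPKM in RSCs from reference transcripts (adjusted p = 0.76). With unnamed transcripts RSC replicate 1 had 783 FPKM and Jun was called (difference 0.63, adjusted p = 0.0015). Gdnf and Bdnf were not called from reference transcripts, at adjusted p = 0.36 and adjusted p = 0.90.

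Markers of other cells differed between the groups as well, and in these bulk samples fewer cells of a type and less RNA per cell cannot be told apart. Of the 79 markers found, 66 were tested and 41 (62.1%) were called, 26 with RSCs higher and 15 with SCPs higher. Of all tested genes 40.5% were called, 18.1% with RSCs higher and 22.4% with SCPs higher. With unnamed transcripts the shares of all genes were 23.2% with RSCs higher and 34.2% with SCPs higher. The count of each marker list, here and in the next paragraphs, stands beside these shares. All sums below are FPKM with unnamed transcripts included, and counts are from reference transcripts. Schwann lineage markers summed to 765, 758 and 871 in SCPs and to 4035, 3344 and 3662 in RSCs, with Ngfr the most abundant by reference transcripts, 7 of 11 called higher in RSCs and 1 (Sox10) in SCPs, or 10 and 1 of 12 with unnamed transcripts. S100b had 11.4 ± 8.06 FPKM in SCPs and 850 ± 71.5 in RSCs, and Gfap was 11.5-fold higher in RSCs, or 7.90-fold with unnamed transcripts.

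Shh and Dhh were higher in RSCs beside markers of the Schwann lineage, fibroblasts, perineurial cells, leukocytes and some of mural cells. Fibroblast markers summed to 643, 913 and 1022 in SCPs and to 6949, 8037 and 7395 in RSCs, with 7 of 8 called higher in RSCs. Dcn, their most abundant gene, stood at 15.8 ± 7.68 FPKM in SCPs and 2060 ± 791 FPKM in RSCs, and Col1a1 was 10.6-fold higher in RSCs. Leukocyte markers summed to 20.3, 32.9 and 48.3 in SCPs and to 2201, 2522 and 2656 in RSCs, with 8 of 8 called higher in RSCs, Lyz2 the most abundant and the T cell gene Cd3e at 0 in SCPs. Lyz2 had 3.98 ± 2.02 FPKM in SCPs and 1635 ± 154 FPKM in RSCs, and Cd68, another macrophage gene, had a difference of 7.02. Perineurial markers summed to 74.6, 68.0 and 66.3 in SCPs and to 284, 313 and 333 in RSCs, with Itgb4 the most abundant, and Lypd2 was at 0 in both groups. Of 5 tested, Slc2a1, the most abundant by reference transcripts, and Cldn1 were higher in RSCs by 2.57-fold and 7.28-fold, and Krt19 was 7.05-fold higher in SCPs. Mural markers summed to 78.6, 272 and 162 in SCPs and to 291, 266 and 293 in RSCs, and in the length-weighted sum to 83.4, 282 and 166 in SCPs and to 939, 789 and 755 in RSCs, where Rgs5 was the most abundant. In both of these forms 3 of 7 tested were called higher in RSCs and 1 in SCPs. Of 6 tested mural markers Cspg4 was 5.43-fold higher in RSCs, with Acta2 the most abundant. Rgs5 was listed at 0 in RSCs by reference transcripts alone, and had 98.4, 79.9 and 75.3 FPKM there with unnamed transcripts. The part of these cells in the levels of Shh and Dhh was not tested.

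Smo, the co-receptors and, with unnamed transcripts, the GLI genes were higher in SCPs beside markers of embryonic tissues. Skeletal muscle progenitor markers summed to 33.1, 27.6 and 55.1 in SCPs and to 0, 0.211 and 0.323 in RSCs, with 4 of 4 called higher in SCPs, Myog (17.7 ± 12.4 FPKM in SCPs) the most abundant and Pax7, Myf5 and Myod1 at 0 in RSCs. Cartilage and limb mesenchyme markers summed to 130, 158 and 156 in SCPs and to 18.3, 26.3 and 18.5 in RSCs. Col2a1, the most abundant, was 219-fold and Twist1 4.19-fold higher in SCPs, Sox9 was 1.96-fold higher in RSCs by reference transcripts but not called with unnamed ones (adjusted p = 0.023), and Matn1 and Tbx5 were at 0 in RSCs. Neuron markers summed to 72.3, 47.6 and 46.1 in SCPs and to 35.1, 25.8 and 28.0 in RSCs. Of 6 tested, Stmn2 and Elavl4 were higher in SCPs, Elavl4 and Isl1 were at 0 in RSCs, and Tubb3, the most abundant, was not called.

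Erythroid markers were the most uneven, at 35145, 22669 and 74712 in SCPs and 2.26, 3.23 and 2.79 in RSCs, with 5 of 6 called higher in SCPs. Hbe1, an embryonic globin and the most abundant, was at 28320, 19817 and 68201 FPKM in SCPs, and Hbe1 and Hbz were at 0 in RSCs, with Alas2 at 0 in SCPs by reference transcripts alone. Endothelial markers had 0 of 7 called by limma, with 4 higher in RSCs at an unadjusted p under 0.05, and Tie1 was the most abundant. They summed to 51.1, 98.7 and 64.0 in SCPs and to 101, 85.4 and 83.9 in RSCs. The part of these cells in the levels of Smo, Gli1, Gli2, Gli3, Gas1, Cdon and Boc was not tested.

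**Figure D4:**
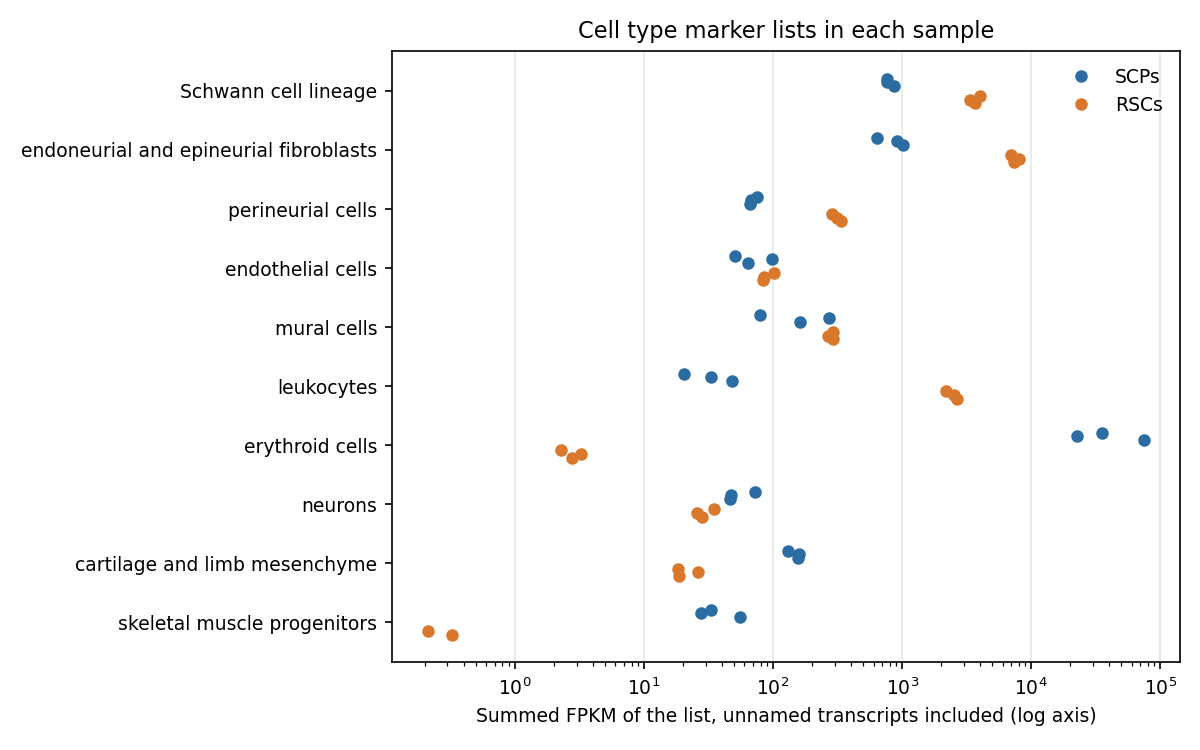
Summed FPKM of each marker list in each sample on a log axis, unnamed transcripts included, SCPs in blue and RSCs in orange. A sum of 0, that of skeletal muscle progenitors in RSC replicate 1, has no place on the axis, and erythroid sums reach 22669 or more in SCPs and 3.23 or less in RSCs.

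Genes with the most similar pattern were found by Pearson correlation of log2(FPKM + 1) over the 6 samples, which form 2 groups, so that any gene separating the groups scores high. For Shh they were Rin1, Tpsb2 and C4b, the highest at r = 0.99997, and 631 of 13002 genes exceeded 0.99. For Dhh they were Endod1, Sh3kbp1 and Ccl7, with 221 genes over 0.99. Olig1 was followed most closely by Stom, Cdkn2a and Lvrn, each at or near 0 in SCPs, with 84 genes over 0.99. For Gli1 the closest were LOC685152, Fgfr3 and Atl2, the first being the only gene over 0.99 (r = 0.992). Tpsb2, a mast cell protease gene, had 6.78, 7.72 and 6.98 FPKM in RSCs and was listed at 0 in SCPs, as Shh was.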

How the data were processed

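Stranded mRNA libraries of 3 SCP and 3 RSC samples were sequenced with paired ends, and the authors processed the reads on rn6 with FastQC 0.11.2, TopHat2 2.1.0 and Cufflinks 2.2.1, per the submitters' processing notes. The files, as deposited, list Cufflinks transcripts per sample with FPKM, its interval, and read coverage, the signal from which relative depth (median coverage per FPKM) was taken. The tables hold no counts, so no count test was run. FPKM were summed by gene symbol after 77 transcripts with date-like names were left out of each table. Unnamed transcripts were added to the symbol of the same Cufflinks locus that they overlapped most. Those added held 8.90% to 11.4% of the FPKM in SCPs and 10.8% to 12.2% in RSCs, and all unnamed transcripts 26.1% to 31.9% and 18.6% to 23.4%. Whether strand was used in assigning reads is not given in the sources used here.

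limma 3.58.1 (R 4.3.3) with a variance trend was fitted to log2(FPKM + 1) of all tested genes, with Benjamini-Hochberg adjustment over all of them. Adding 1 understates changes of low genes, and a 0 can be a failed estimate. Tested on simulated data for 13003 genes, it called 92% of 200 genes changed by a log2 fold of 3 and 1.03% of the unchanged genes. Tables were handled with pandas 2.3.3. The genes, lists and tests were chosen with earlier results of these data known. Named are the 9 genes, the up to 4 most changed called genes per direction of each pathway list, up to 2 per direction, the most abundant gene and those at 0 of each marker list, and the 3 genes closest in pattern to Shh, Dhh, Gli1 and Olig1. Other genes with values were named after these were seen. Some genes that the rule names are not reported here. The 100 pathway symbols hold 1 gene under both its names (Grk2, in the tables as Adrbk1), and Foxl1, Mosmo and Wdr35 were not analysed, nor was the marker Clec3b. Promoters are from RefSeq on GRCr8, where 6 of the 9 genes matched. The alternatives tried were pseudocount, filter, scaling, trend, replicate block, threshold, transcript choice, zeros, unnamed transcripts and leaving out each sample.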

Additional observations from a re-analysis of the deposited data

How the results depend on the processing

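Shh and Dhh were called higher in RSCs in every fit that tested them (log2 differences of 3.79 to 7.11 and 3.43 to 4.13), and none of the fits that left out a sample changed which direction had how many calls (2 higher in RSCs, 1 in SCPs). The count of Hedgehog genes called higher in SCPs, 1 as reported, was 0 with a pseudocount of 0.1, 2 with no filter (Hhip added), 4 with unnamed transcripts added and 4 with these weighted by length, an alternative chosen after seeing the data. In the last pair of fits the calls of other pathway genes higher in SCPs went from 15 to 24 and 31, and of all genes from 2917 to 4789 and 5266. A mean of at least 5 FPKM left 9 of 15 marker calls higher in SCPs, since fewer genes were tested. Median-of-ratios scaling moved the median difference of all genes from -0.17 to 0.016 and the calls from 2351 to 2768 on the RSC side and from 2917 to 2186 on the SCP side. It turned the direction of none of the 7 Hedgehog genes tested under it, and was not run for Hhip and Olig1. Ptch1 changed sign, from -0.15 to 0.0072 with unnamed transcripts and 0.13 by length, and ranged from -1.35 to 0.97 with a sample left out (0.46 without SCP replicate 2, 0.43 without SCP replicate 3 and 0.97 without RSC replicate 2), its reference values holding a 0 in each group. Smo ranged from -4.30 to -3.09, Dhh from 3.43 to 3.98, Shh from 3.79 to 3.93, Gli1 from -0.75 to -0.37, Gli2 from -1.65 to -0.68 and Gli3 from -1.24 to -0.35 with a sample left out, and without SCP replicate 2 Gli3 was at -0.35. Hhip passed the filter without an RSC sample, at -1.19 to -1.13 and no longer called (unadjusted p of 0.013 to 0.015), beside the call of -1.17 in the fit with no filter. With each sample left out in turn, calls higher in RSCs and in SCPs were 9 to 11 and 13 to 16 of other pathway genes, 25 to 29 and 12 to 15 of markers, and 2019 to 2262 and 2317 to 2573 of all genes. Over the 9 genes, 121 of the values under an alternative stayed on their side of the threshold or, for the ratio of group means, within the limma standard error of the difference. Another 6 became called, all of them Gli1, Gli2 and Gli3 with unnamed transcripts. Of the rest, 5 changed sign, all for Ptch1, and 4 lost their call, 3 for Hhip and 1 for Smo. As a log2 ratio of group means, 2 moved further from 0, Gli3 to -1.67 and Hhip to -3.49.

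Replicate numbers did not pair the samples, since same-numbered samples deviated from their group means with correlations of -0.0049 to 0.044. With the replicate block, Hedgehog genes called with RSCs and with SCPs higher numbered 2 and 1, other pathway genes 10 and 14, markers 25 and 12, and all genes 2022 and 2253. With no counts, the error of single low values such as those of Hhip and Olig1 rests on the Cufflinks intervals.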
